A study of Mus musculus with 44 samples.

Results

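The genes described here encode the enzymes that build cholesterol and fatty acids and the proteins that control them. The list holds 35 mouse genes, and a gene was read from a probe set that carries its symbol alone, taking the brightest where there were several. In all, 34 of the 35 could be read, out of 19938 genes on the arrays, and Acat2 had no probe set of its own. They fall into 6 roles. Of those read, 6 act in the mevalonate steps, 11 lead from squalene to cholesterol, 6 control the pathway or move cholesterol, 4 supply acetyl-CoA or make palmitate, 3 elongate and 4 desaturate fatty acids. The mean over all arrays lay above the median gene for 30 of the 34, and 1 of them, Scd1, lay under the 25th percentile of all genes, which was 5.80 on the log2 scale.

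Cholesterol is made from acetyl-CoA by way of mevalonate, farnesyl diphosphate and squalene, and fatty acids are made from the same acetyl-CoA by way of malonyl-CoA. Both routes are driven by the sterol regulatory element binding proteins, SREBP-2 (encoded by Srebf2) mainly for cholesterol and SREBP-1 (Srebf1) mainly for fatty acids. The escort protein Scap carries these factors out of the endoplasmic reticulum when sterols are scarce, and the Insig proteins hold Scap back when sterols are plentiful. In macrophages (MFs), which take up lipid from dying cells, liver X receptors sense oxysterols, promote cholesterol export and also raise transcription of Srebf1 and of desaturase genes.

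MFs were taken from mouse tibialis anterior muscle injured with cardiotoxin, a toxin that kills muscle fibres and starts regeneration. CD45+ cells were enriched on magnetic beads and sorted by flow cytometry into MFs labelled Ly6C+ F4/80low, the inflammatory subset, and Ly6C- F4/80high, the subset that follows it during repair. RNA was read on 44 one-colour Affymetrix arrays in 10 groups, and the values were log2 intensities made with RMA (robust multi-array average, which corrects background, normalises and summarises probes). The comparisons ask how expression differed between the subsets, over the days after injury, without PPARg (a nuclear receptor that responds to lipids) in myeloid cells, and with rosiglitazone, a PPARg agonist. Wild-type (WT) animals were C57B6/J. Knockout (KO) animals were C57B6/J, PPARg fl/fl, LysM Cre+, meaning that Cre was expressed from the lysozyme M locus (Lyz2) in myeloid cells and so was not limited to MFs. Untreated Ly6C+ arrays came from day 1 (WT n = 4, KO n = 4), day 2 (WT n = 6, KO n = 5) and day 4 (WT n = 4, KO n = 4), and untreated Ly6C- arrays from day 2 (WT n = 6, KO n = 5). Rosiglitazone was given to WT animals alone and read at day 2, in Ly6C+ (n = 3) and in Ly6C- MFs (n = 3). The labels call the replicates biological and give no animal, age, dose or batch. The series text speaks of muscle from 3 animals without tying animals to arrays, so the p-values measure the spread between arrays. Precision is limited by how many arrays a group holds.

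Some arrays went at least in part against their labels, and results that rest on them are given in more than 1 way. At day 2, the untreated arrays labelled WT replicates 1 to 3 had Lyz2 levels of 8.67 to 9.29 in both subsets, close to the KO arrays (9.07 to 9.96), in which Cre occupies Lyz2, and below WT replicates 4 to 6 (12.64 to 13.02). Their Lyz1 levels, 11.84 to 12.22, also lay within the KO range of 11.74 to 12.71, whereas WT replicates 4 to 6 had 9.95 to 10.75. Day 2 results are therefore also given against each set of arrays labelled WT. The day 4 arrays labelled Ly6C+ had a mean Vcan level (a monocyte gene) of 6.56 in WT, against 12.15 in the Ly6C+ and 7.97 in the Ly6C- MFs of day 2, and a mean Igf1 level of 11.09, against 7.93 and 10.90. They were compared with both day 2 subsets for that reason. A probe set shared by the sort marker genes Ly6c1 and Ly6c2 lay between the subsets, at 9.58 to 10.09 in WT at day 4. It read 8.61 to 8.94 in Ly6C- and 11.74 to 12.15 in Ly6C+ arrays of WT day 2. Of the other monocyte genes in WT, Plac8 (mean 9.20) and Ccr2 (10.07) also lay between the day 2 subsets, and Chil3 (6.41) lay below both. Pparg did not pass the test between KO and WT in any condition (differences of 0.00 to 0.24, KO minus WT), and since no source read here states which exons its probe set covers, it does not check the deletion. In such sorted bulk samples, fewer cells of a type and less RNA per cell cannot be told apart.

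The sequences just upstream of 5 members are shown because Srebf2, Insig1, Hmgcs1 and Cyp51 were among the genes that were lower at day 4, and Mvk was higher. Each is the 250 bases before the annotated start in RefSeq (GRCm38.p6), printed 5′ to 3′ on the gene's strand, for Srebf2 at chr15:82147019-82147268 (plus strand), Insig1 at chr5:28071162-28071411 (plus), Hmgcs1 at chr13:119690101-119690350 (plus), Cyp51 at chr5:4104698-4104947 (minus) and Mvk at chr5:114444019-114444268 (plus). Capitals mark the letters CACNCCAC (like a sterol response element), CCAAT (the box bound by NF-Y, a partner of SREBP) and CACGTG (an E-box), or their reverse complements.
Srebf2: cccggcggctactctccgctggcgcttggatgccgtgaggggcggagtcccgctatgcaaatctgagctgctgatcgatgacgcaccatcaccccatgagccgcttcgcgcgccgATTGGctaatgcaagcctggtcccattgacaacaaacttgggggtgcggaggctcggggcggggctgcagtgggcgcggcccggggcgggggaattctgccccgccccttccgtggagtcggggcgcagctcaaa
Insig1: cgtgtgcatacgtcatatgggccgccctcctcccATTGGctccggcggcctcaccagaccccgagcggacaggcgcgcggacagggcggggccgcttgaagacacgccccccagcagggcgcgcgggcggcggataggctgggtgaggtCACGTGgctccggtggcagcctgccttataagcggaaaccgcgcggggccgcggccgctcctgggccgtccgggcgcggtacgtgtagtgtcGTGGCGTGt
Hmgcs1: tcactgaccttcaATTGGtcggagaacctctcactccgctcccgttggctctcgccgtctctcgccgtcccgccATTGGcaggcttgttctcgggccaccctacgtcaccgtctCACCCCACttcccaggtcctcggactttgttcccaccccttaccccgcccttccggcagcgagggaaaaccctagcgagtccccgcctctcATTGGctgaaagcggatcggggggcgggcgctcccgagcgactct
Cyp51: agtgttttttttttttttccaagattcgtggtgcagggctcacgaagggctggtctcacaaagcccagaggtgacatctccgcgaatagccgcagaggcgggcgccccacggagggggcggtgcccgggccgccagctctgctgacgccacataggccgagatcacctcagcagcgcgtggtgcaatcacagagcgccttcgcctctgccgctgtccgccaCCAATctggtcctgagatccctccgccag
Mvk: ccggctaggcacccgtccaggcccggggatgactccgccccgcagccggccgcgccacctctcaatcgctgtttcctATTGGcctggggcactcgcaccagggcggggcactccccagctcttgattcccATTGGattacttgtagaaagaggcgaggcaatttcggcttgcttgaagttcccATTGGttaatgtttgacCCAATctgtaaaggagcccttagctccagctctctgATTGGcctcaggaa
Srebf2 held CCAAT at -135, counted from the start. Insig1 held CACNCCAC at -9, the E-box at -101 and CCAAT at -216. Hmgcs1 held CACNCCAC at -136 and CCAAT at -45, -176 and -237. Cyp51 held CCAAT at -29, and Mvk held it 5 times, at -14, -50, -67, -120 and -173. Windows of 300 bases, 250 before and 50 after a start, could be searched on both strands for 27 of the 34 members (36 windows, since some genes have several starts). CCAAT was in 24 of the 36 member windows (66.7%) and in 37.4% of all 32851 windows, CACGTG in 7 (19.4%) and 7.2%, and CACNCCAC in 2 (5.6%) and 6.2%. CCAAT thus lay before genes that fell and genes that rose, and a match of letters is no evidence of a bound site. Only exact matches to these letters were sought, so a missing match does not show that a sterol element is absent.

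**Figure D1:**
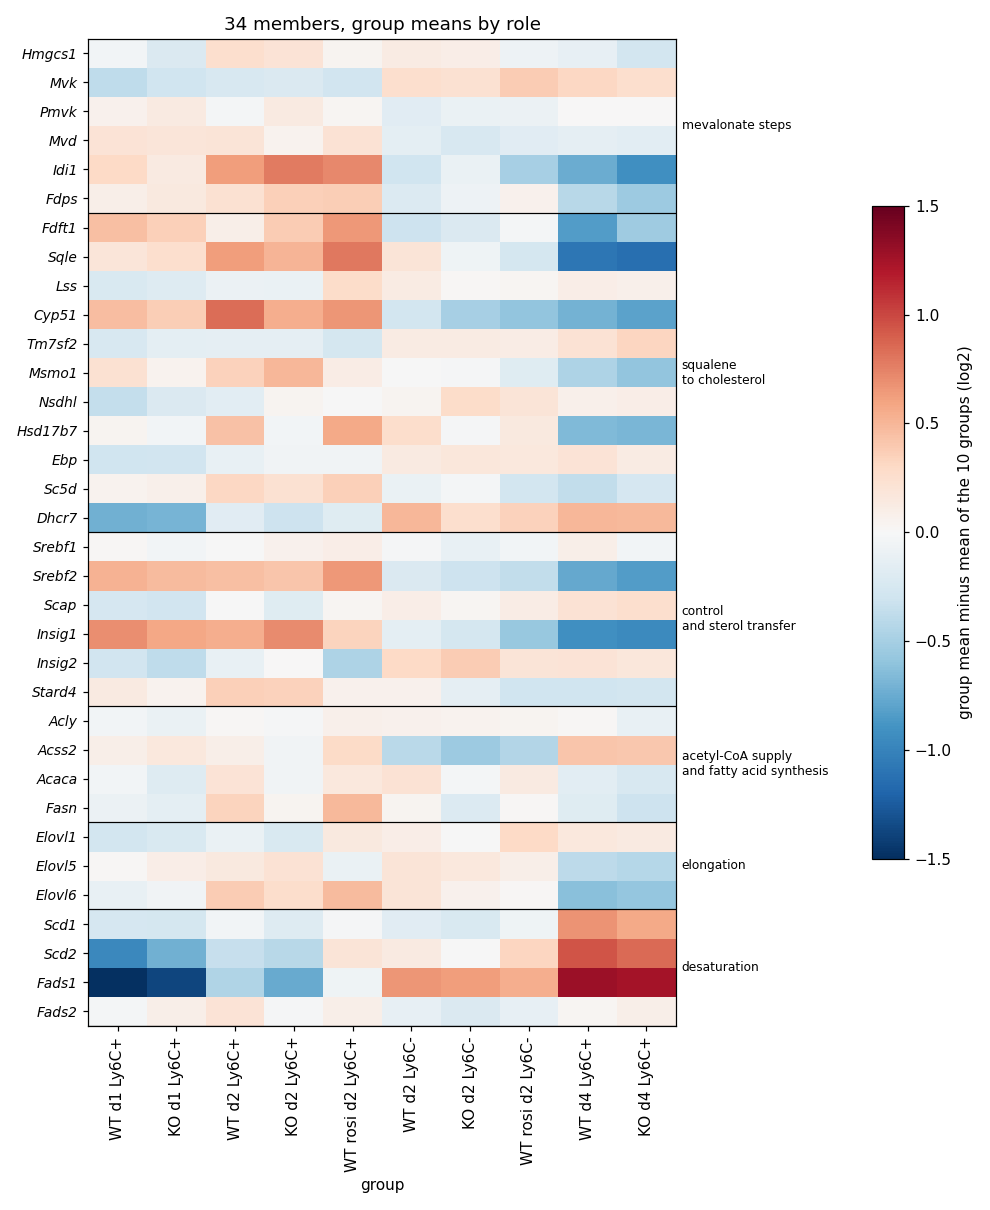
Mean log2 level of each of the 34 genes in the 10 groups, as the difference from the gene's mean over the groups (colour), with genes ordered by role. The day 4 columns stand apart from the others, with Sqle, Insig1 and Srebf2 low and Fads1, Scd2 and Scd1 high. Cyp51 and Idi1 are low there and also in the day 2 Ly6C- columns.

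Among the comparisons run, the largest differences lay between day 4 and day 2 in MFs labelled Ly6C+, and day 4 was not compared with day 1. In WT, 18 of the 34 genes were lower and 11 higher at day 4, while 26.0% of all genes were lower and 23.8% higher (limma, adjusted p under 0.05). The median difference was -0.25 over the members and -0.09 over all genes. Sterol and fatty acid genes did not move as 1 block. Of the 17 sterol enzymes, 10 fell and 4 rose, and of the 11 fatty acid enzymes, 5 fell and 5 rose. The falls included Idi1, Fdps, Fdft1, Sqle and Cyp51, which act along the route from isopentenyl diphosphate past lanosterol, although Lss, which acts between Sqle and Cyp51, did not pass (0.18 ± 0.13). The rises included the desaturases Scd1, Scd2 and Fads1. With WT day 2 replicates 1 to 3 alone 29 of the 34 genes passed, and with replicates 4 to 6 alone 28. The share of all genes called with each set is not given.

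Among the sterol enzymes, Sqle, the squalene epoxidase that carries out a rate-limiting step, changed most in WT, and Idi1 did in KO. The day 2 WT Ly6C+ arrays read 7.80, 7.81, 7.64, 8.53, 8.30 and 8.80, and the day 4 arrays read 6.68, 6.41, 6.23 and 6.40. The day 4 arrays all lay below the day 2 arrays, and Sqle was 3.28-fold lower (SE 0.20 on the log2 scale, adjusted p = 9.79e-10). In KO it lay between 7.71 and 8.34 at day 2 and between 6.11 and 6.75 at day 4, again without overlap, and fell by 1.64 ± 0.20 on the log2 scale, the scale and error (SE) of the differences that follow. Cyp51, the demethylase that acts on lanosterol, read 7.73 to 8.41 at day 2 and 6.47, 6.45, 6.49 and 6.75 at day 4 in WT, and fell by 1.54 ± 0.13.

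Idi1, which isomerises isopentenyl diphosphate, fell by 1.38 ± 0.23 in WT and by 1.70 ± 0.24 in KO. Its WT arrays spread from 7.80 to 9.15 at day 2 and from 6.55 to 7.10 at day 4, and the ranges did not overlap. Hsd17b7, a sterol ketone reductase, fell by 1.10 in WT and 0.65 in KO. Fdft1 (squalene synthase) fell by 0.93, Msmo1 (a sterol methyl oxidase) by 0.81, Sc5d (a sterol desaturase) by 0.68 and Fdps (farnesyl diphosphate synthase) by 0.65 in WT. Fdft1 was uneven at day 2 in WT, with arrays between 8.21 and 10.21, so that 2 of the 4 day 4 arrays lay below all of them. Hmgcs1, which makes the precursor of mevalonate, fell by less, 0.37 ± 0.11 in WT and 0.48 ± 0.11 in KO, and Mvd, the decarboxylase that ends the mevalonate steps, by 0.32 in WT.

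The sterol enzymes that rose sit at other points of the route. Dhcr7, the reductase that yields cholesterol, read 7.41 to 7.92 in WT at day 2 and 8.22, 8.31, 8.18 and 8.36 at day 4, a rise of 0.67 ± 0.10. Mvk, the mevalonate kinase, lay between 7.69 and 8.04 at day 2 and between 8.32 and 8.50 at day 4, and rose by 0.55 ± 0.07. For both genes every day 4 array lay above every day 2 array. Tm7sf2, a sterol reductase, rose by 0.35 and Ebp, a sterol isomerase, by 0.31 in WT, and Ebp did not pass in KO.

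The control genes also split. Insig1 was 2.75-fold lower at day 4 in WT, with 10.34 to 11.10 at day 2 and 9.26, 9.16, 9.54 and 9.63 at day 4, and it fell by 1.66 ± 0.12 on the log2 scale in KO. Srebf2 fell by 1.23 ± 0.10 in WT (9.65 to 10.42 against 8.65 to 8.92) and by 1.25 ± 0.10 in KO. The ranges of these genes did not overlap between the days. Srebf1, on the other hand, differed by 0.09 ± 0.08 in WT (adjusted p = 0.33) and by -0.10 ± 0.08 in KO (adjusted p = 0.31). Stard4, which carries cholesterol between membranes, fell by 0.66 in WT, while Insig2 rose by 0.32 and Scap by 0.23.

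Among the fatty acid genes, Fads1, a desaturase of polyunsaturated fatty acids, was 3.33-fold higher at day 4 in WT. It read 8.29, 8.16, 8.09, 8.71, 9.72 and 8.50 at day 2 and 10.37, 10.50, 10.23 and 10.15 at day 4. Replicate 5 stood above the other day 2 arrays and still lay below all at day 4. Scd2, which puts the first double bond into saturated acyl chains, rose by 1.29 ± 0.14 in WT (9.10 to 10.18 against 10.72 to 10.90), and in KO by 1.27 ± 0.14. Scd1, with the same activity, lay between 5.31 and 5.71 at day 2 and between 6.08 and 6.24 at day 4 in WT, dim throughout, and rose by 0.71 ± 0.08. Acss2, which makes acetyl-CoA from acetate, rose by 0.33 ± 0.10.

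In contrast, the elongases Elovl6 and Elovl5 fell by 1.01 ± 0.13 and 0.53 ± 0.09, and Elovl1 rose by 0.27. Fasn, the synthase that makes palmitate, fell by 0.52 ± 0.10 in WT and 0.36 ± 0.10 in KO. Acaca, which makes malonyl-CoA, fell by 0.36 on its brightest probe set. Its other probe set gave a difference of 0.04 (adjusted p = 0.785), so its direction depends on the probe set. The probe sets correlated at 0.616 over the arrays, and the other Acaca calls below also rest on the brightest one. Fads2, the other polyunsaturated desaturase, fell by 0.18 in WT, and that call was lost when WT day 2 replicate 1, 2, 4 or 5 or WT day 4 replicate 3 or 4 was left out.

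**Figure D2:**
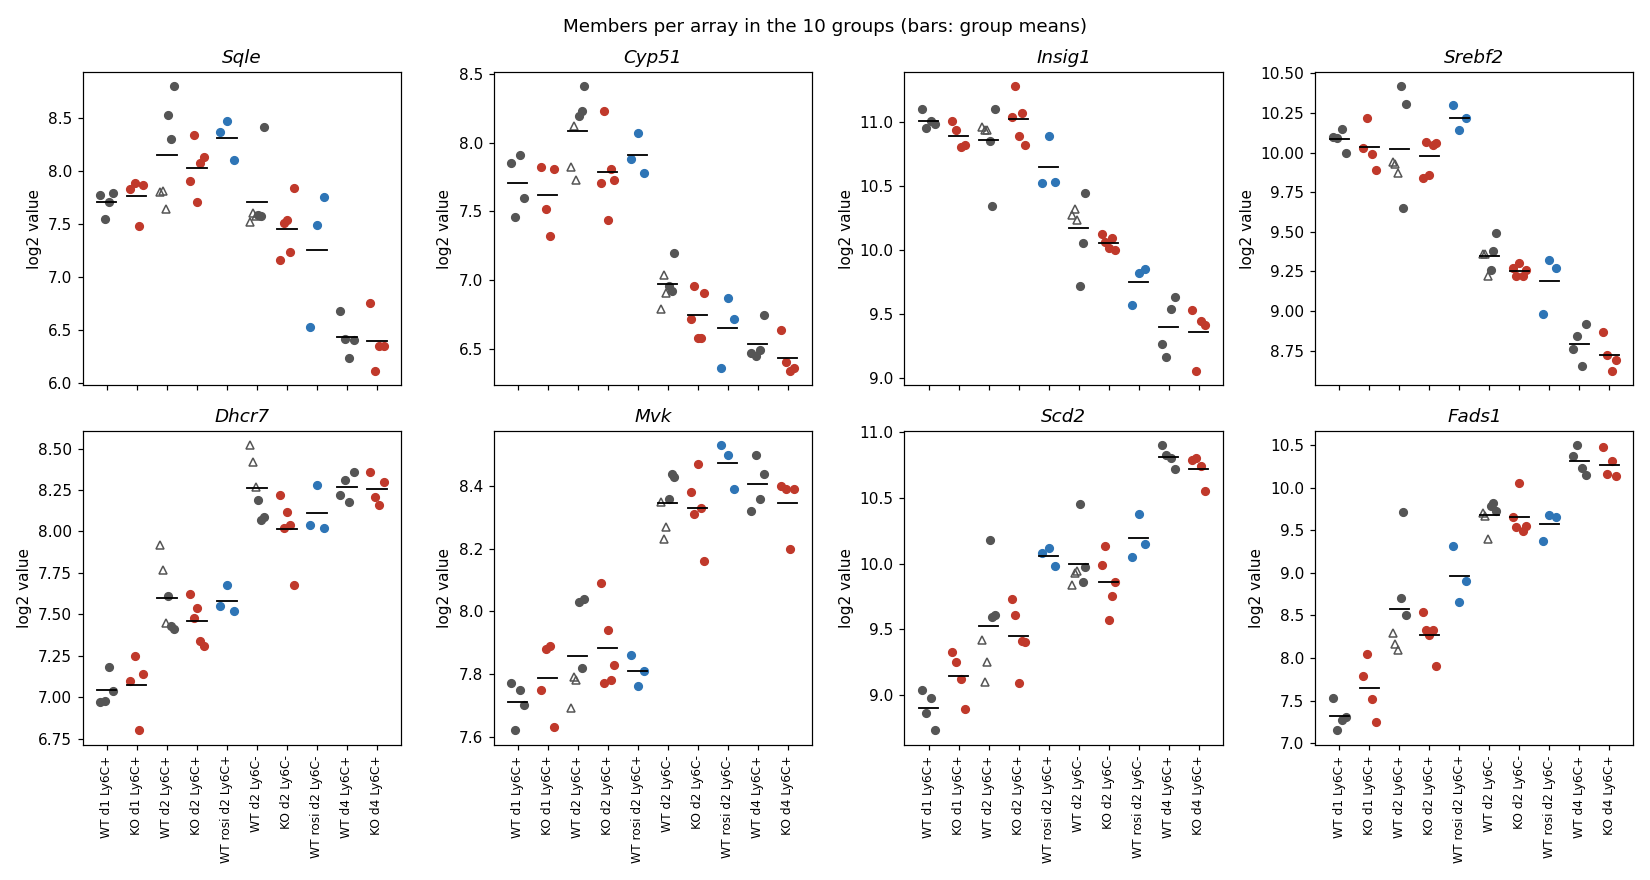
Log2 level of 8 genes in each of the 44 arrays (points), with the group means (bars). WT arrays are grey, KO red and rosiglitazone blue, and open triangles are the day 2 arrays labelled WT replicates 1 to 3. Sqle, Cyp51, Insig1 and Srebf2 are lowest at day 4, and Dhcr7, Mvk, Scd2 and Fads1 are high there.

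In KO MFs, 16 genes fell and 9 rose from day 2 to day 4, while 22.5% of all genes were lower and 22.3% higher. The largest rise was that of Fads1, which was 3.99-fold higher (7.91 to 8.54 at day 2 and 10.14 to 10.48 at day 4, without overlap). Cyp51 fell by 1.35, Msmo1 by 1.10, Fdft1 by 0.91 and Fdps by 0.90. Dhcr7 rose by 0.80, Scd1 by 0.77, Mvk, Tm7sf2 and Acss2 by 0.46 each and Scap by 0.43. The comparisons in WT and in KO use different arrays, although WT day 2 replicates 1 to 3 had KO-like Lyz2 and Lyz1 levels. Here and below, overlaps of calls between WT and KO were counted for the members alone. No overlap is thus shown to be particular to the members. All 25 genes called in KO were called in the same direction in WT, which is 86.2% of the 29 called there, and the 4 called in WT alone were Acaca, Ebp, Fads2 and Insig2. No member passed the test of a day 4 change that differs between the genotypes, as 0.0301% of all genes did, and 2 members had an unadjusted p under 0.05. The largest such difference was 0.46 for Hsd17b7 (adjusted p = 0.488). Mvd in KO was lost when KO day 2 replicate 3 or KO day 4 replicate 2 or 4 was left out.

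Markers of other cell types moved with these days. Of the 6 muscle fibre markers, 4 were higher at day 4 in WT, and the mean of the list was 7.07 to 7.18 against 6.48 to 6.67 at day 2. Of the 5 myoblast markers 3 were higher (6.65 to 6.84 against 6.23 to 6.41), and all 6 neutrophil markers were lower (6.0 to 6.09 against 6.70 to 7.03). The 7 macrophage markers averaged 11.80 to 11.87 at day 4 and 11.24 to 11.42 at day 2. Of the 5 endothelial markers, 4 were lower in WT (6.69 to 6.78 against 6.80 to 7.43) and 2 in KO. All 4 monocyte markers were lower in both genotypes. Of the 5 adipocyte markers, 1 was lower in WT and 0 in KO (5.81 to 6.02 at day 4 and 5.91 to 6.10 at day 2 in WT), and Adipoq lay between 4.35 and 4.70 in the group means. Of the other lists in WT, 2 dendritic, 2 erythroid and 1 B cell marker were lower and 1 fibroblast and 1 T and NK marker higher. In KO, 4 muscle fibre, 3 myoblast and 2 fibroblast markers were higher and 5 neutrophil, 1 dendritic, 1 B cell and 1 erythroid marker lower. The part of these shifts in the differences was not tested.

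The day 4 arrays were closer to the Ly6C- MFs of day 2 in Vcan, Igf1 and Adgre1, though between the WT subsets in Ly6c. Against these Ly6C- MFs, fewer of the genes differed. In WT, 10 were lower and 4 higher, while 15.2% of all genes were lower and 14.1% higher. Sqle fell by 1.28 ± 0.20, Hsd17b7 by 0.92, Elovl6 by 0.82, Insig1 by 0.77 and Elovl5 by 0.58. Srebf2 fell by 0.55, Msmo1 by 0.46, Cyp51 by 0.43, Acaca by 0.38 (brightest probe set) and Stard4 by 0.36. The rises were those of Scd1 by 0.84 ± 0.08, Acss2 by 0.83 ± 0.10, Scd2 by 0.81 ± 0.14 and Fads1 by 0.63 ± 0.18. For each of these 14 genes, all 4 day 4 arrays lay beyond all 6 Ly6C- arrays. Markers of other cells moved here too. In WT, 4 of 6 muscle fibre markers (7.07 to 7.18 at day 4 and 6.45 to 6.69 in Ly6C- arrays), 4 of 5 myoblast (6.65 to 6.84 and 6.10 to 6.31), 4 of 6 fibroblast (6.55 to 6.95 and 6.26 to 6.39), 2 of 4 T and NK and 2 of 4 dendritic markers were higher at day 4, and 2 of 6 neutrophil markers were lower. In KO, all 6 muscle fibre markers were higher (7.01 to 7.10 and 6.48 to 6.55), as were 3 myoblast, 3 fibroblast, 2 T and NK and 2 dendritic markers, and 2 neutrophil markers were lower. Of the 4 monocyte markers, 2 were higher and 2 lower in each genotype. Their part was not tested.

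Hmgcs1 (-0.25 ± 0.11, adjusted p = 0.0862), Fasn (-0.22 ± 0.10, adjusted p = 0.0932) and Srebf1 (0.10 ± 0.08, adjusted p = 0.402) did not pass in this comparison. Mvk and Dhcr7, which were higher at day 4 than in the Ly6C+ MFs of day 2, did not pass here either. Acss2 was the one gene lower in the Ly6C- MFs of day 2 than in Ly6C+ MFs and higher at day 4 than in both. In WT its 6 Ly6C- arrays read 6.68 to 7.09, the Ly6C+ arrays 7.15 to 7.75 and the day 4 arrays 7.63 to 7.76. Msmo1 was lost when WT day 2 Ly6C- replicate 6 or WT day 4 replicate 4 was left out.

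In KO, 11 genes were lower and 6 higher against Ly6C- MFs, while 11.8% of all genes were lower and 13.1% higher. Of these 17 genes, 12 were called the same way in WT, which is 70.6% of the KO and 85.7% of the WT list. No such overlap was counted over all genes. Sqle fell by 1.07, Idi1 by 0.82, Insig1 by 0.70, Hsd17b7 by 0.67, Elovl6 by 0.65, Elovl5 by 0.60, Msmo1 by 0.58 and Srebf2 by 0.53. Acss2 rose by 0.94, Scd2 by 0.86, Scd1 by 0.80, Fads1 by 0.61, Fads2 by 0.30 and Scap by 0.22. Hmgcs1 fell by 0.37, and Fasn (-0.11) and Srebf1 (0.07) did not pass. The calls of Acaca, Fads1, Fdps, Hmgcs1, Idi1 and Scap were each lost when 1 array was left out, among them KO day 4 replicates 1, 2 and 3 and KO day 2 Ly6C- replicate 5.

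**Figure D3:**
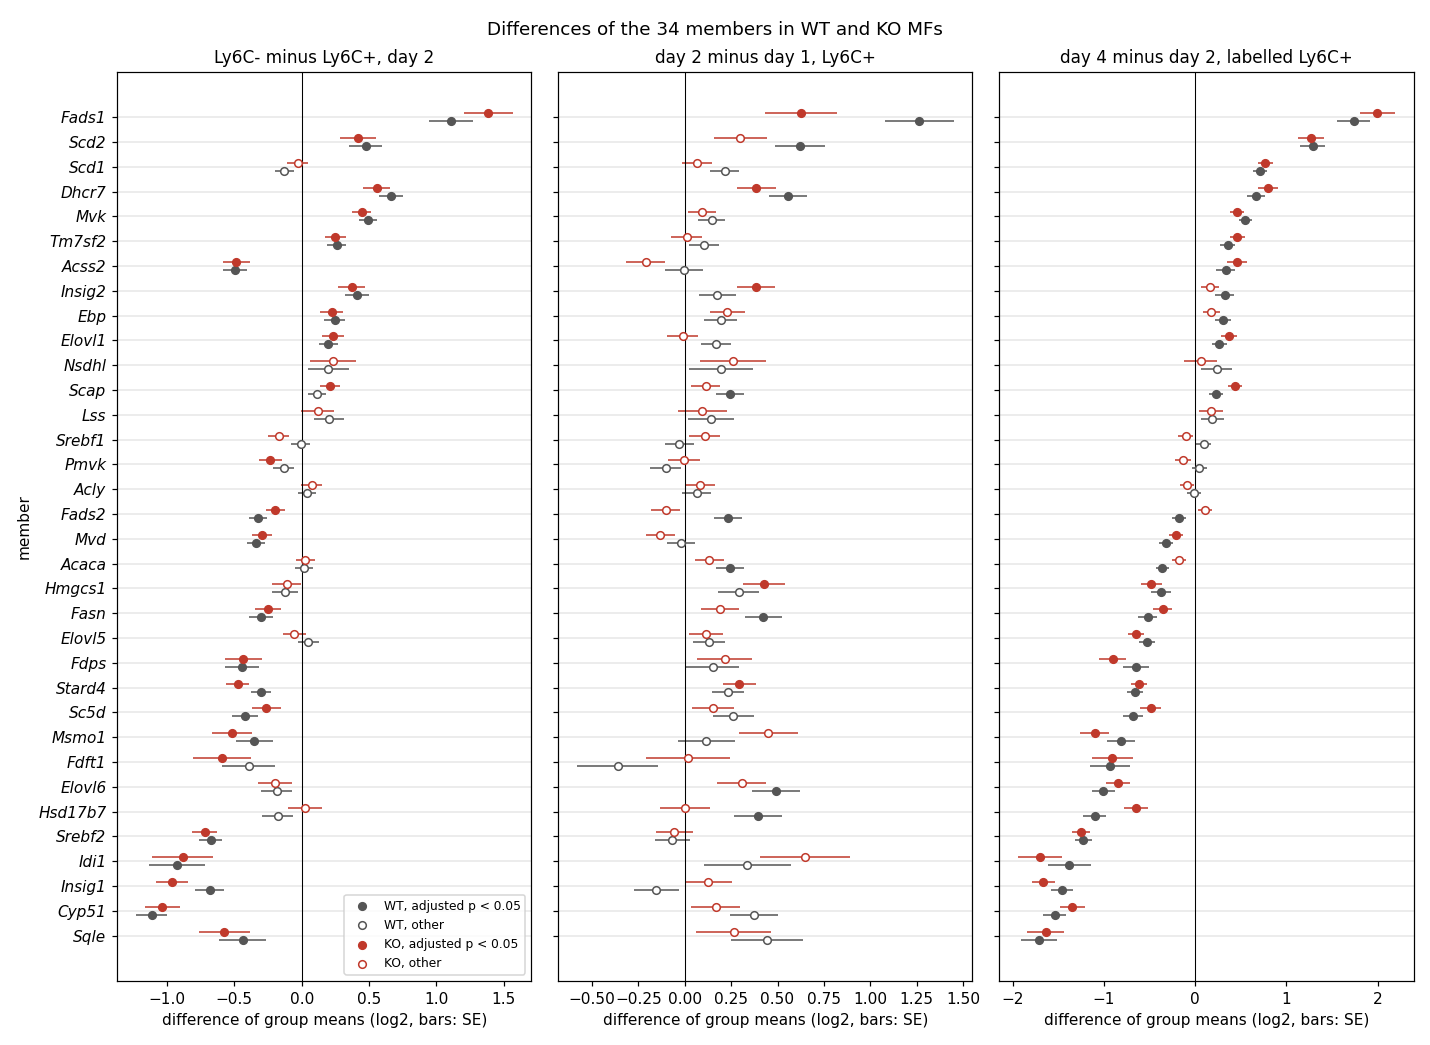
Log2 difference (x axis, with SE bars) of each gene for the subsets at day 2 (left), and for day 2 less day 1 and day 4 less day 2 in Ly6C+ MFs, in WT (grey) and KO (red). Filled points passed an adjusted p of 0.05, and the 2 genotypes lie close together in the subset and day 4 panels.

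Between the untreated day 2 subsets, the sterol genes again included the largest falls and Fads1 the largest rise. In WT, 13 of the 34 genes were lower and 8 higher in Ly6C- than in Ly6C+ MFs, while 23.0% of all genes were lower and 22.2% higher, with a median of -0.13 over the members and -0.07 over all genes. Cyp51 read 7.73 to 8.41 in Ly6C+ and 6.79 to 7.20 in Ly6C- arrays without overlap, a fall of 1.11 ± 0.12 (adjusted p = 1.78e-10). Idi1 fell by 0.93 ± 0.21, Insig1 by 0.68 ± 0.11, Srebf2 by 0.67 ± 0.08 and Acss2 by 0.49 ± 0.09. Srebf2 ran from 9.65 to 10.42 in Ly6C+ and from 9.22 to 9.49 in Ly6C- arrays, again without overlap.

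Fads1 rose by 1.11 ± 0.17. Its Ly6C- arrays read 9.40 to 9.82 and its Ly6C+ arrays 8.09 to 8.71 with replicate 5 at 9.72, so replicate 5 alone overlapped. Dhcr7 rose by 0.66 ± 0.09 (7.41 to 7.92 against 8.07 to 8.52) and Mvk by 0.49 ± 0.06 (7.69 to 8.04 against 8.23 to 8.44), and neither overlapped. Scd2 rose by 0.48 ± 0.12 and Insig2, the second retention protein, by 0.41 ± 0.09. Insig1 and Insig2 thus moved in opposite directions. Tm7sf2 rose by 0.26, Ebp by 0.24 and Elovl1 by 0.20, and Fdps fell by 0.44, Sc5d by 0.42, Msmo1 by 0.35, Mvd by 0.34, Fads2 by 0.33, Stard4 by 0.30 and Fasn by 0.30.

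Sqle was less clear in WT. Its Ly6C- arrays read 7.52, 7.60, 7.57, 7.58, 7.57 and 8.41 against 7.64 to 8.80 in Ly6C+ arrays, and replicate 6 overlapped. With WT replicates 1 to 3 alone 19 of the 34 genes passed, Sqle not among them, and with replicates 4 to 6 alone 17. The share of all genes called with each set is not given. The Sqle fall was 0.44 ± 0.17 (adjusted p = 0.0383), and it lost its call when any of 8 arrays was left out (Ly6C+ replicates 4 to 6 and Ly6C- replicates 1 to 5). Msmo1 (8 arrays, among them Ly6C+ replicates 2, 4 and 6), Elovl1 (6, among them Ly6C+ replicates 1, 2, 3 and 6) and Ebp (Ly6C+ replicate 6) also lost theirs. Hmgcs1 (-0.12 ± 0.10, adjusted p = 0.294), Srebf1 (-0.01 ± 0.07, adjusted p = 0.94) and Scd1 (-0.13 ± 0.07, adjusted p = 0.122) did not pass. Markers of other cells moved with the subsets. All 4 monocyte markers (7.62 to 8.33 in Ly6C- and 10.87 to 11.05 in Ly6C+ arrays), 4 of 6 neutrophil (6.41 to 6.64 and 6.70 to 7.03), 4 of 5 endothelial (6.65 to 6.87 and 6.80 to 7.43), 4 of 4 T and NK (5.49 to 5.63 and 5.77 to 5.97), 4 of 6 fibroblast (6.26 to 6.39 and 6.36 to 7.01) and 2 of 4 dendritic markers (6.23 to 6.46 and 6.95 to 7.16) were lower in Ly6C- MFs, and 2 neutrophil markers were higher. Of the adipocyte, muscle fibre, myoblast, B and erythroid lists, 1 marker each was lower. Their part was not tested.

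In KO, 15 genes were lower and 9 higher in Ly6C- MFs, while 18.6% of all genes were lower and 19.8% higher. All 21 genes called in WT were called in the same direction in KO, which is 87.5% of the 24 called there. The overlap over all genes was not counted. KO added Fdft1 (-0.59), Pmvk (-0.23, phosphomevalonate kinase) and Scap (0.21). Cyp51 fell by 1.03 ± 0.13, Insig1 by 0.96 ± 0.12, Idi1 by 0.88 ± 0.23, Srebf2 by 0.72 ± 0.09, Sqle by 0.57, Msmo1 by 0.52, Acss2 by 0.49 and Fasn by 0.25. Fads1 rose by 1.38 ± 0.18, Dhcr7 by 0.56, Mvk by 0.45, Scd2 by 0.41, Insig2 by 0.37, Tm7sf2 by 0.25, Elovl1 by 0.23 and Ebp by 0.22. Hmgcs1 (-0.11), Srebf1 (-0.17) and Scd1 (-0.03) did not pass. Of the marker lists, 4 of 4 monocyte, 4 of 6 neutrophil, 4 of 5 endothelial, 3 of 5 adipocyte, 2 of 4 T and NK, 2 of 4 dendritic, 2 of 6 muscle fibre, 1 of 5 myoblast and 1 of 2 erythroid markers were lower in Ly6C- MFs and 1 neutrophil marker was higher, and their part was not tested. No member passed the test of a subset difference that differs between the genotypes (0.0100% of all genes did), and none had an unadjusted p under 0.05 there. The largest such difference was -0.28 ± 0.16 for Insig1 (adjusted p = 1). With each array left out in turn, 13 of the 24 KO calls held, and those lost were Ebp, Elovl1, Fads2, Fasn, Fdft1, Pmvk, Sc5d, Scap, Scd2, Sqle and Tm7sf2.

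With rosiglitazone, 11 genes were lower and 4 higher in Ly6C- MFs, while 8.68% of all genes were lower and 14.6% higher. Sqle read 8.37, 8.47 and 8.10 in Ly6C+ and 6.53, 7.49 and 7.75 in Ly6C- arrays, a fall of 1.05 ± 0.25. Replicate 1 of the treated Ly6C- arrays was the lowest by far. Cyp51 fell by 1.25 ± 0.16, Idi1 by 1.22, Srebf2 by 1.03, Insig1 by 0.90, Acss2 by 0.73, Sc5d by 0.63, Fasn by 0.48, Elovl6 by 0.45, Mvd by 0.40 and Stard4 by 0.36. Mvk rose by 0.66, Insig2 by 0.65, Dhcr7 by 0.53 and Tm7sf2 by 0.37. Fads1 (0.61 ± 0.23, adjusted p = 0.0537), Scd2 (0.13 ± 0.17, adjusted p = 0.65), Hmgcs1 (-0.12), Srebf1 (-0.14) and Scd1 (-0.04) did not pass. Of the marker lists, 4 of 4 monocyte, 2 of 6 neutrophil, 2 of 4 dendritic, 1 of 5 endothelial and 1 of 4 T and NK markers were lower in Ly6C- MFs and 1 neutrophil marker was higher, and their part was not tested.

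Whether rosiglitazone changed the subset difference was tested for each gene. None of the 34 passed (0.0150% of all genes did), and 3 had an unadjusted p under 0.05. The largest change was in Sqle (-0.61 ± 0.30, adjusted p = 0.641). Elovl6 and Stard4 lost their calls between the treated subsets when 1 array was left out, among them Ly6C+ replicate 2 and Ly6C- replicate 1 for both.

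From day 1 to day 2, Ly6C+ MFs showed rises and no falls among the genes. In WT, 9 of 34 were higher and 0 lower, while 6.51% of all genes were higher and 3.17% lower, with a median of 0.20 over the members and 0.02 over all genes. Fads1 read 7.53, 7.15, 7.27 and 7.31 at day 1 and 8.09 to 9.72 at day 2, a rise of 1.26 ± 0.18 (adjusted p = 7.1e-06). Scd2 rose by 0.62 ± 0.14 (8.73 to 9.04 against 9.10 to 10.18) and Dhcr7 by 0.56 ± 0.10 (6.97 to 7.18 against 7.41 to 7.92). The arrays of these 3 genes did not overlap between the days. Elovl6 rose by 0.49, Fasn by 0.42, Hsd17b7 by 0.40, Acaca by 0.24, Scap by 0.24 and Fads2 by 0.23.

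Sqle (0.44 ± 0.20, adjusted p = 0.157), Hmgcs1 (0.29 ± 0.11, adjusted p = 0.0862), Scd1 (0.21 ± 0.08, adjusted p = 0.0787), Insig1 (-0.15 ± 0.12, adjusted p = 0.509) and Srebf1 (-0.03 ± 0.08, adjusted p = 0.888) did not pass. In KO, 5 genes were higher and 0 lower, while 6.06% of all genes were higher and 2.58% lower. They were Fads1 by 0.63 ± 0.19, Hmgcs1 by 0.43 ± 0.11, Dhcr7 by 0.39 ± 0.10, Insig2 by 0.38 ± 0.10 and Stard4 by 0.29 ± 0.09. Idi1 had the largest KO difference (0.65) and did not pass, nor did Sqle (0.26), Srebf1 (0.11), Insig1 (0.13), Fasn (0.19), Scd1 (0.07) and Scd2 (0.30). Dhcr7 and Fads1 were called in both genotypes, which is 22.2% of the WT and 40.0% of the KO list. The overlap over all genes was not counted. No member passed the test of a change that differs between the genotypes (0.0100% of all genes did), 3 had an unadjusted p under 0.05, and the largest difference was that of Fads1 (-0.64 ± 0.27, adjusted p = 0.48).

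These day 2 counts rested on few arrays. With WT day 2 replicates 1 to 3 alone 11 genes passed in WT, and with replicates 4 to 6 alone 15. The share of all genes called is not given for these sets or for the arrays left out below. A shift in these counts is thus not shown to be particular to the members. Without WT day 1 replicate 2 the WT count was 5, and Acaca, Fads2, Hsd17b7 and Scap each lost their call without it and without some other arrays. Without KO day 1 replicate 3 the KO count was 0, and it was 3 without KO day 1 replicate 1 or 4 or KO day 2 replicate 3, 2 without KO day 2 replicate 1 and 1 without KO day 2 replicate 2. With arrays centred on their medians the counts were 5 in WT and 3 in KO, all higher, while over all genes the split of higher to lower went from 1298 to 633 to 737 to 831 in WT and from 1209 to 514 to 808 to 555 in KO. Neutrophil markers moved with the days as well, with list means of 7.16 to 7.33 at day 1 and 6.70 to 7.03 at day 2 in WT, where 2 of 6 neutrophil and 1 of 4 monocyte markers were lower and 1 fibroblast, 1 endothelial and 1 dendritic marker higher. In KO, 3 neutrophil and 2 monocyte markers were lower and 1 endothelial marker higher. Their part was not tested.

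Between KO and WT, 2 genes passed, both in Ly6C+ MFs at day 2 and both lower in KO, while 1.88% of all genes passed in either direction. Hsd17b7 read 7.59, 7.60, 7.36, 7.58 and 7.65 in KO and 8.0, 7.76, 7.73, 8.58, 7.81 and 8.30 in arrays labelled WT, a difference of -0.48 ± 0.12 (adjusted p = 0.0316). Acaca read 8.12 to 8.26 in KO and 8.28 to 8.56 in WT, a difference of -0.26 ± 0.07 (adjusted p = 0.0403). Neither overlapped, but the other probe set of Acaca gave 0.02 (adjusted p = 0.966). Hsd17b7 was lost without WT replicate 1 or KO replicate 1, 2, 3 or 4. Acaca was lost without any 1 of the KO replicates or of WT replicates 1, 2, 3 and 5, and the count was then between 0 and 2. Of the marker lists, 2 of 5 endothelial, 1 of 6 fibroblast and 1 of 4 dendritic markers were lower in KO in this comparison, and their part was not tested.

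The remaining genes are given by their largest differences. At day 2 in Ly6C+ MFs, Sqle (-0.12), Hmgcs1 (-0.04), Srebf1 (0.07), Insig1 (0.16), Fasn (-0.29), Scd1 (-0.15), Scd2 (-0.08) and Fads1 (-0.30) did not pass. No gene passed at day 1 (0.0351% of all genes), in Ly6C- MFs at day 2 (0.201%) or at day 4 (0.0652%), and the counts at an unadjusted p under 0.05 were 0, 5 and 0. The largest difference was 0.34 ± 0.20 for Fads1 at day 1, -0.28 for Hsd17b7 in Ly6C- MFs and 0.31 for Fdft1 at day 4. At day 1 the 8 genes with a value in every comparison differed by 0.06 for Sqle, -0.17 for Hmgcs1, -0.07 for Srebf1, -0.12 for Insig1, -0.06 for Fasn, -0.01 for Scd1 and 0.24 for Scd2, beside Fads1. In Ly6C- MFs at day 2 they differed by -0.25 for Sqle, -0.03 for Hmgcs1, -0.09 for Srebf1, -0.11 for Insig1, -0.24 for Fasn, -0.05 for Scd1, -0.14 for Scd2 and -0.02 for Fads1. At day 4 the differences between genotypes were -0.04 ± 0.21 for Sqle, -0.15 ± 0.12 for Hmgcs1, -0.04 ± 0.13 for Insig1, -0.12 ± 0.09 for Srebf1, -0.13 ± 0.11 for Fasn, -0.10 ± 0.09 for Scd1, -0.09 ± 0.15 for Scd2 and -0.04 ± 0.20 for Fads1.

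Rosiglitazone was compared with no treatment in WT MFs at day 2. In Ly6C+ MFs, Scd2 was higher and Insig2 and Stard4 were lower, while 11.1% of all genes passed in either direction. Scd2 read 10.08, 10.12 and 9.98 with the drug and 9.42, 9.10, 9.25, 10.18, 9.59 and 9.61 without it, a difference of 0.54 ± 0.15 (adjusted p = 0.0157). The treated arrays lay above all untreated arrays except replicate 4. Insig2 read 7.61, 8.22 and 7.75 against 8.01 to 8.34 (-0.35 ± 0.11), and Stard4 read 6.87, 7.11 and 6.96 against 7.07 to 7.50 (-0.30 ± 0.09). For both, 1 treated array lay within the untreated range. Of 5 endothelial markers 3 were lower with the drug (list means of 6.77 to 6.88 against 6.80 to 7.43), and 1 neutrophil and 1 dendritic marker were higher, and their part was not tested.

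The 3 calls depended on single arrays. The count was 0 without treated replicate 1, 1 without treated replicate 3, 8 without untreated replicate 4 and 5 without untreated replicate 5. Scd2 lost its call without treated replicate 1 or 2. Sqle (0.17), Hmgcs1 (-0.20), Srebf1 (0.10), Insig1 (-0.21), Fasn (0.15), Scd1 (0.02) and Fads1 (0.38) did not pass. With arrays centred on their medians, 2 genes were higher and 0 lower instead of 1 and 2, and over all genes the split of higher to lower went from 1101 to 1117 to 1468 to 739.

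In Ly6C- MFs no member passed with rosiglitazone (0.0351% of all genes did), 5 had an unadjusted p under 0.05, and the count was 2 without untreated replicate 4. The largest difference was in Sqle, with treated arrays at 6.53, 7.49 and 7.75 and untreated arrays at 7.52 to 8.41 (-0.45 ± 0.21, adjusted p = 0.502). Insig1 differed by -0.42 ± 0.13 (adjusted p = 0.255), Hmgcs1 by -0.20, Fads1 by -0.11, Srebf1 by -0.03, Fasn by -0.03, Scd1 by 0.10 and Scd2 by 0.19.

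The day 2 arrays labelled WT were not 1 uniform group for these genes. Replicates 4 to 6 were compared with replicates 1 to 3 over both subsets, a comparison chosen after seeing the data, and 11 genes were higher and 3 lower in replicates 4 to 6, while 10.3% of all genes were higher and 10.5% lower. Nsdhl, a sterol dehydrogenase, read 8.69, 8.51 and 8.31 in Ly6C+ replicates 1 to 3 and 9.63, 9.36 and 9.45 in replicates 4 to 6. In Ly6C- arrays it read 8.90, 8.75 and 8.81 against 9.55, 9.53 and 9.60. The sets were separate in both subsets and differed by 0.86 (adjusted p = 5.37e-11). Nsdhl had no call between any of the study's groups.

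Higher in replicates 4 to 6 were also Idi1 by 0.60, Fdft1 by 0.59, Sqle by 0.54, Fads1 by 0.49, Fdps by 0.45, Lss (which closes the sterol rings) by 0.44, Sc5d by 0.38, Scd2 by 0.36, Hsd17b7 by 0.33 and Mvk by 0.17. Lower were Dhcr7 by -0.26, Elovl5 by -0.23 and Stard4 by -0.19. Of the 11 higher genes, 9 are sterol enzymes. Nothing in the labels separates the sets, so a difference of genotype, batch or animals cannot be told apart.

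**Figure D4:**
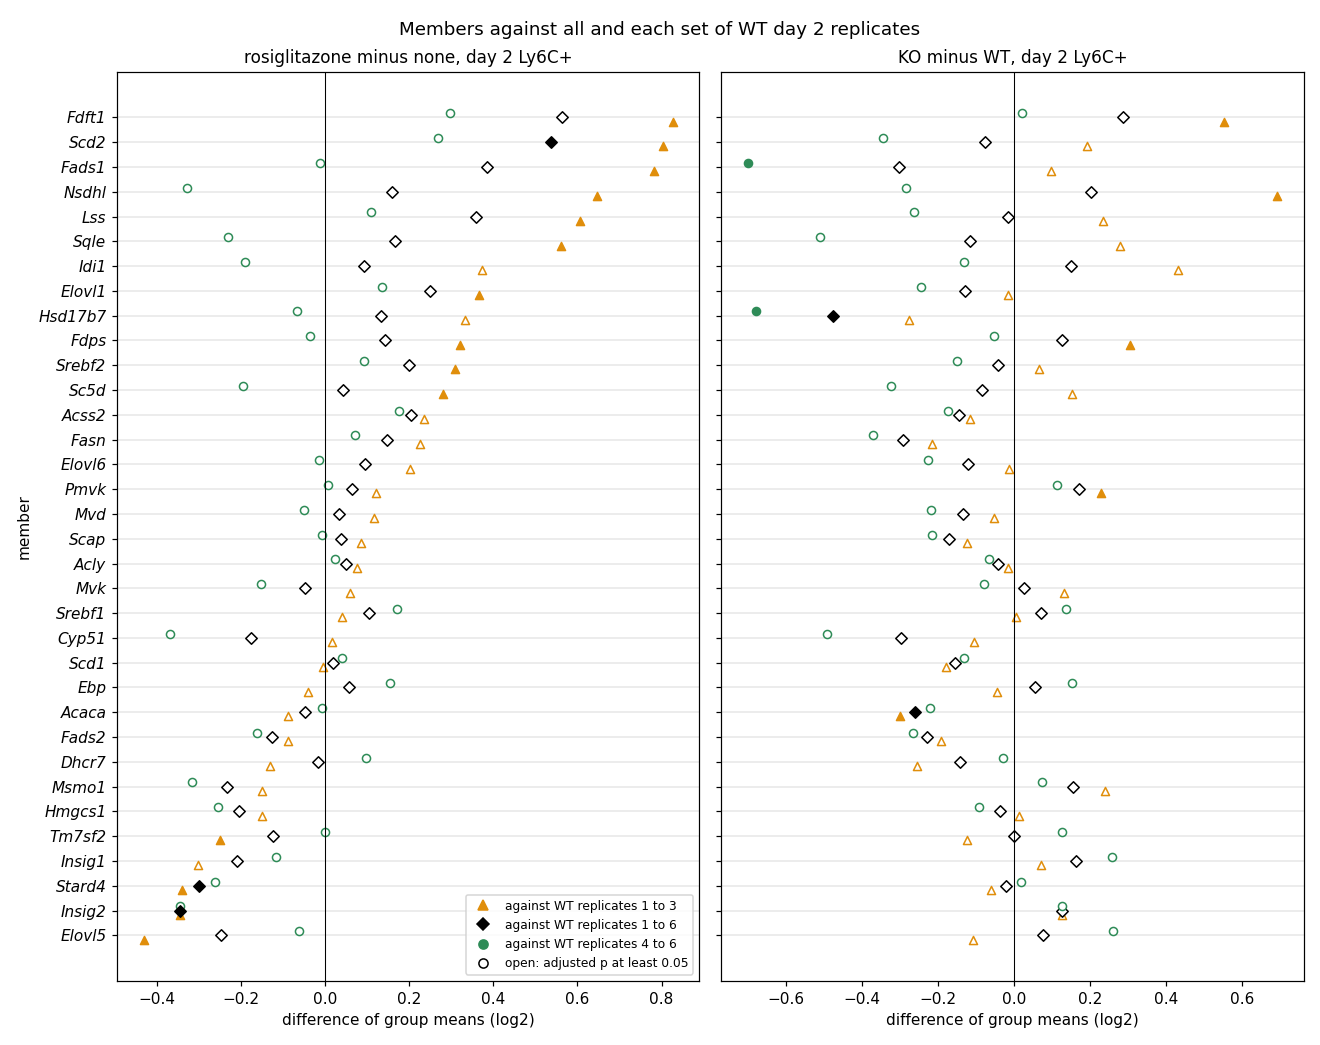
Log2 difference of each gene for rosiglitazone against none and for KO against WT in day 2 Ly6C+ MFs, taken against the arrays labelled WT replicates 1 to 3 (orange triangles), 1 to 6 (black diamonds) or 4 to 6 (green circles). Open symbols did not pass, and the 3 choices of WT arrays pull the points apart for Nsdhl, Fdft1, Sqle and Scd2.

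The day 2 calls for genotype and drug depended on the choice of these arrays. Each set also holds fewer arrays than the full group, which lowers precision. Against replicates 4 to 6, whose Lyz2 level was that of the other WT arrays, KO Ly6C+ MFs had lower Hsd17b7 (-0.68, adjusted p = 0.0106) and Fads1 (-0.70, adjusted p = 0.0454) and no gene passed in Ly6C- MFs. Against replicates 1 to 3, Nsdhl (0.69), Fdft1 (0.55), Fdps (0.30) and Pmvk (0.23) were higher and Acaca (-0.30) lower in KO Ly6C+ MFs. In Ly6C- MFs the same choice gave 7 calls, with Nsdhl, Fdft1 and Fdps higher and Dhcr7, Stard4, Acaca and Fasn lower. For rosiglitazone in Ly6C+ MFs, 14 genes passed against replicates 1 to 3 and 0 against replicates 4 to 6, where Scd2 differed by 0.27 (adjusted p = 0.425). For rosiglitazone in Ly6C- MFs, 5 passed against replicates 1 to 3, namely Fdps, Fdft1 and Nsdhl higher and Insig1 and Stard4 lower. Between the sets themselves, 10.3% of all genes were higher and 10.5% lower in replicates 4 to 6. The counts by set are therefore not shown to be particular to the listed genes.

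Over the 15 comparisons of groups, 4 of the 34 genes passed in none, namely Srebf1, Acly (which makes acetyl-CoA from citrate), Lss and Nsdhl. Srebf1 lay between 8.51 and 9.0 on all arrays but WT day 2 Ly6C+ replicate 5 at 8.28. Scd2, Fads1 and Stard4 passed in 8 comparisons each, more than any other member. Several comparisons share arrays, so these counts are not independent of each other. The same counts were not made over all genes, so they are not shown to be particular to the members.

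Within groups, pairs of genes were described by the correlation of their deviations after each group's mean was removed. The median was 0.44 over pairs of the genes lower at day 4 in both genotypes (120 pairs, from -0.21 to 0.83), 0.15 over pairs of those higher (36 pairs) and 0.03 between the sets. It was 0.19 over all pairs of the 34 members and 0.00 over all pairs of genes on the arrays. Over pairs of sterol enzymes it was 0.33, and 0.20 without the day 2 arrays labelled WT, where the first 3 medians were 0.39, 0.14 and 0.00. Idi1 and Msmo1 had the value 0.83 over the 44 arrays, Sqle and Idi1 0.77, Srebf2 and Sqle 0.58, and Sqle and Insig1 0.29. These are descriptions over arrays that share hybridisation, normalization and, in part, sorted sources.

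Genes next to the listed ones in lipid metabolism were read from 73 named genes, of which 60 were on the arrays, 1 probe set each. From day 2 to day 4 in WT MFs labelled Ly6C+, 29 rose and 17 fell, while 23.8% of all genes rose and 26.0% fell. In KO, 26 rose and 15 fell, against 22.3% and 22.5% of all genes. Against the Ly6C- MFs of day 2, 11 were higher and 16 lower at day 4 in WT. Of all genes, 14.1% were higher and 15.2% lower there. In KO, 12 were higher and 13 lower, against 13.1% and 11.8% of all genes. Between the subsets of day 2 in WT, 28 were higher in Ly6C- MFs and 8 lower, while 22.2% of all genes were higher and 23.0% lower. At day 4 in WT, all 5 oxysterol and liver X receptor genes that passed, of 6, rose, namely the exporters Abcg1 (2.09) and Abca1 (1.17), the sterol hydroxylases Cyp27a1 (2.05) and Ch25h (0.74) and the receptor gene Nr1h3 (1.23). Against the Ly6C+ MFs of day 2, the export genes were higher in the same day 4 arrays in which Sqle, Cyp51 and Srebf2 were lower. Against the Ly6C- MFs of day 2 in WT, 3 of the 6 oxysterol and liver X receptor genes were higher and 0 lower. A link between these changes was not tested.

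The next values also compare day 4 with day 2 in WT MFs labelled Ly6C+. Of 8 genes of the prenyl branch and other sterol steps, 4 rose and 2 fell. Among them the farnesyltransferase subunits Fnta (0.78) and Fntb (0.55) rose, and Nus1 (-0.60) and Acat1 (-0.39) fell. Of 5 genes listed for the control, transport or processing of SREBP, Pgrmc1 (0.72) and Mbtps1 (0.36) rose. Sec24a (-0.82), a coat protein of vesicles that leave the endoplasmic reticulum, fell. Uptake, transport and ester genes gave 6 rises and 3 falls of 9, with Stard5 (1.61) and Mylip (1.34), which marks the LDL receptor for degradation, among the rises and Lrp8 (-1.10) and Osbp (-0.58) among the falls. Of 32 other genes of fatty acid and glycerolipid synthesis, 12 rose and 11 fell, with Lpin1 (1.74), Hacd4 (1.06) and Mid1ip1 (0.85) rising and Gpat3 (-2.70), Acsl4 (-1.04) and Dgat1 (-0.83) falling.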

How the data were processed

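The deposited table held 35556 probe sets on 44 arrays as log2 intensities, which the authors computed by RMA with a software version not given in the sources used here. Array medians ran from 6.64 to 6.77, correlations between arrays from 0.935 to 0.996, and 0 pairs were identical. Probe sets with 1 gene symbol (21789) were kept without a filter on dim ones, and the probe set of highest mean stood for each of 19938 genes. Idi1, Fdft1 and Acaca had several. RMA gives no interval for a single array.

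One mean per group was fitted over all 44 arrays with limma 3.58.1 (lmFit, eBayes) in R 4.3.3. The residual degrees of freedom were 34 and the prior ones 6.46. Tests were two-sided, and passing meant an adjusted p below 0.05, by Benjamini-Hochberg over the genes of a contrast. "Rose", "fell", "higher" and "lower" refer to genes that passed. The 4 further contrasts tested differences between differences. The code was tested on simulated data.

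The members and lists were chosen with earlier results of these data known. The text names the members called, or above 15 at least the 8 largest rises and falls, the largest difference where none was called, and Sqle, Hmgcs1, Srebf1, Insig1, Fasn, Scd1, Scd2 and Fads1 in every comparison of groups. Correlations of deviations between arrays of the same number were checked for pairing. All exceeded 0.1 between the rosiglitazone subsets alone (0.134 to 0.443, 3 pairs). Alternatives were array-median centring, fits on the compared groups with and without a replicate block, a filter on low means, all probe sets averaged, a trended robust fit, each array left out, and each set of day 2 arrays labelled WT. The comparison of those sets and the other probe set of 3 genes were added after seeing the data. Counts of members under each set of WT arrays and with arrays left out are given without the share of all genes called. Marker lists are those of macrophages, monocytes, adipocytes, muscle fibres, myoblasts, fibroblasts, endothelium, neutrophils, T and NK cells, B cells, dendritic cells and erythroid cells. Fibroblast markers averaged 6.24 to 7.01 on every array. Promoter letters came from RefSeq.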

Additional observations from a re-analysis of the deposited data

Results flagged for a closer look

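In 272 sets of 4 to 6 arrays (1 gene in 1 group), the gap between the highest or lowest array and its neighbour was tested against the range of the set. In 25 of them 1 array stood apart, and chance alone picks out about 1 set in 20. No explanation was tested.

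Several arrays stood apart for more than 1 gene. WT day 2 Ly6C- replicate 6 was high in Sqle (8.41, the others 7.52 to 7.60) and Msmo1 (9.85, the others 9.16 to 9.26). WT day 2 Ly6C+ replicate 5 was low in Insig1 (10.34) and Srebf1 (8.28). WT day 2 Ly6C- replicate 3 was low in Fads1 (9.40) and Elovl6 (7.77). KO day 2 Ly6C+ replicate 3 was low in Fdft1 (9.17), Hsd17b7 (7.36) and Acss2 (6.98). KO day 4 replicate 2 was low in Fdft1 (8.22) and Sc5d (7.91).

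The other sets had 1 array apart each. In sterol genes, Sqle was low in KO day 1 replicate 3 (7.48), Cyp51 high in WT day 4 replicate 4 (6.75), Mvd low in WT day 4 replicate 2 (7.70), Mvk low in KO day 4 replicate 3 (8.20) and Pmvk high in KO day 1 replicate 2 (7.42). Tm7sf2 was low in WT day 1 replicate 2 (6.25), Ebp was high in WT day 2 Ly6C- replicate 1 (9.47) and in KO day 4 replicate 1 (9.47), and Srebf1 was high in KO day 2 Ly6C- replicate 1 (8.71). In fatty acid genes, Scd2 was high in WT day 2 Ly6C- replicate 4 (10.45), Fasn low in WT day 2 Ly6C- replicate 5 (7.79) and high in KO day 2 Ly6C- replicate 2 (7.96), and Elovl1 high in WT day 2 Ly6C+ replicate 4 (11.19) and low in KO day 2 Ly6C+ replicate 5 (10.56).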

How the results depend on the processing

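Of 164 differences of single genes that passed, 109 kept their call in every alternative run and 55 lost it in at least 1. Only Acaca changed direction, on its other probe set, at day 4 against day 2 in WT (0.041) and in KO against WT Ly6C+ MFs at day 2 (0.016). The counts of members that follow are given without the share of all genes called under the same setting. Counts of genes that passed moved by over 1.5 times as follows. Day 2 against day 1 in WT gave 9, and 5 with centring, 2 with the compared groups alone, 3 with a replicate block as well and 15 with WT replicates 4 to 6. In KO it gave 5, and 3, 8 and 10 with centring, the compared groups and the block. KO against WT in Ly6C+ MFs at day 2 gave 2, and 0 under each of those 3, 1 with averaged probe sets and 5 with WT replicates 1 to 3. In Ly6C- MFs it gave 0, and 7 with WT replicates 1 to 3. Rosiglitazone in Ly6C+ MFs gave 3, and 0 with the compared groups alone, 12 with a replicate block as well, 14 with WT replicates 1 to 3 and 0 with replicates 4 to 6. In Ly6C- MFs it gave 0, 3 with the block and 5 with replicates 1 to 3. With replicates 1 to 3, tests of a difference between differences gave 1 for rosiglitazone by subset (Lss), 2 for genotype by day 2 (Fdft1 and Nsdhl) and 1 for genotype by day 4 (Nsdhl), and 0 otherwise. The cause was not tested. Among the treated subsets, whose numbers pair, the block gave 18 calls and not 15.

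With each array left out in turn, the counts ran from 17 to 23 between WT subsets, 17 to 22 in KO and 14 to 16 with rosiglitazone, 5 to 12 and 0 to 6 at day 2 against day 1 in WT and KO, 28 to 29 and 24 to 26 at day 4 against Ly6C+ MFs of day 2, and 13 to 16 and 14 to 19 against Ly6C- MFs. They ran from 0 to 2 for KO in Ly6C+ MFs, 0 to 8 for rosiglitazone in Ly6C+ and 0 to 2 in Ly6C- MFs. Over all genes, centring moved the split of higher to lower calls from 2607 and 2343 to 2076 and 2838 at day 4 against Ly6C- MFs in KO and from 17 and 23 to 16 and 12 for KO in Ly6C- MFs. Scd1 was dim, which limits its precision. Same-number arrays of the WT subsets correlated at 0.011 to 0.600 and those of KO at 0.043 to 0.285, so pairing there is not settled.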
